A study of Mus musculus with 2 samples.

Results

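Endothelial cells (ECs) guide leukocytes out of the blood with a small set of surface adhesion molecules. Of this set, 7 genes were followed across the vessel types of a library of normal mouse mammary glands and in mammary tumors. The genes were taken by symbol from a list chosen with earlier results of these data known. They were the selectins Sele and Selp, the immunoglobulin-family molecules Icam1, Icam2 and Vcam1, the addressin Madcam1 and the sialomucin Cd34. All 7 were among the 17641 genes of the normal table, and 6 of them were among the 15644 genes of the tumor table, which does not list Madcam1.

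Leukocytes are first slowed by selectins, which bind sugar-decorated ligands and let the cells roll, and are then arrested by endothelial ICAMs and VCAM-1, which bind integrins that chemokines have activated. Venules are the usual site of this cascade, since they store P-selectin in granules for fast release and make E-selectin, ICAM-1 and VCAM-1 after cytokine stimulation. In high endothelial venules (HEVs) of lymphoid tissue, mucins such as CD34, GlyCAM-1 and MAdCAM-1 carry sulfated sugars that L-selectin on lymphocytes binds.

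Single-cell RNA was measured in 2 droplet libraries of CD45-/CD31+ cells sorted by FACS after enzymatic dissociation, 1 library per condition. Normal endothelial cells (NECs) came from pooled mammary glands of C57BL/6 mice aged 6 to 8 weeks, and tumor endothelial cells (TECs) came from pooled E0771 tumors, grown from a mouse mammary carcinoma cell line implanted in the mammary gland. The labels give neither treatment nor gene deletion for either group, and the strain and age for the NECs alone. The source and cell type labels of the normal library read as if it were tumor tissue, whereas its title and the deposited design give normal glands, and it was read as normal. Since the glands and tumors were pooled and neither library has a replicate, no test was possible, and all intervals below are 95% intervals for counting error only.

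The normal table held 9047 barcodes with 40914092 unique molecular identifiers (UMIs, each a counted RNA molecule), and the tumor table held 704 barcodes with 18980858 UMIs. Cells were kept when they had at least 200 genes, under 10% mitochondrial UMIs, no UMI of Ptprc, Myh11, Epcam or Cspg4, and at least 1 UMI of Cdh5 or Pecam1, and when in the tumor table these 2 genes outnumbered Rhox5, Hmga2 and Krt8 together. These filters left 4940 NECs and 261 TECs, whose cells held 2976 and 16990 UMIs at the median. The libraries shared 3 barcodes, none of them among the kept cells.

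NECs were divided by genes that are not among the 7. A cell was called Glycam1-rich when Glycam1 made up at least 2% of its UMIs (36 cells, median 11740 UMIs). Of the others, it was venous with UMIs of at least 2 of Lbp, Ackr1 and Vwf and none of Gja5 or Bmx (284 cells, median 4090 UMIs), and arterial with a UMI of Gja5 or Bmx and fewer than 2 venous genes (373 cells, median 3197 UMIs). The remaining 4247 cells (median 2868 UMIs) were called other NECs, and 621 of these had a UMI of 1 venous gene. TECs were not divided this way. Levels are given below as CPM, the UMIs of a gene per 1000000 UMIs summed over the cells of a group. The intervals of levels and ratios treat the UMIs of 1 cell as independent and leave out the spread between cells. Glycam1 took 24.2% of the UMIs of the Glycam1-rich cells, which lowers the CPM of every other gene there. Ackr1, the atypical chemokine receptor of venules, was at 7.53 CPM in TECs, against 1084 CPM in venous NECs.

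The endothelial identity of these groups was checked against 6 pan-endothelial genes (Cdh5, Pecam1, Tie1, Cldn5, Egfl7 and Erg), all of which were detected in each group, as was fixed in part by the requirement of a Cdh5 or Pecam1 UMI. Of the 4 genes that this rule did not use, Egfl7 was at 1480 CPM in arterial, 1579 CPM in venous, 1677 CPM in Glycam1-rich and 1684 CPM in other NECs and at 2156 CPM in TECs, against 39.8 CPM in cells of the normal table that carried Epcam. Cldn5, also among these 4, was uneven, at 2353 CPM in arterial NECs and lower in venous than in other NECs (values with the junction genes below). The summed level of all 6 ran from 3349 CPM in Glycam1-rich NECs to 6409 CPM in arterial NECs and was 5334 CPM in TECs. Smooth muscle genes summed to 530.4 CPM in venous NECs, nearly all of it Tagln (505.3 CPM) with Myh11 at 0 by the filter, and to 9.26 CPM in TECs. Salivary gland genes summed to 2305 CPM in other NECs, 1428 CPM in arterial, 1284 CPM in venous and 597.2 CPM in Glycam1-rich NECs, with Bpifa2 the most abundant, and reached 143100 CPM in cells of the normal table that carried Epcam and no Cdh5 or Pecam1. The part of such free or foreign RNA in the levels below was not tested, but in those Epcam cells Icam2 was at 2.80 CPM, Vcam1 at 3.88 CPM, Sele and Madcam1 at 0.108 CPM, Selp at 3.02 CPM, Cd34 at 9.60 CPM and Icam1, the least scarce, at 71.7 CPM. Whether some NECs of any class came from vessels of salivary or lymphoid tissue was not tested either.

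The selectins were highest in venous NECs. Levels are compared within a gene and not between genes. Sele (E-selectin) stood at 247.3 CPM (95% Poisson interval 221.9 to 274.8) in venous NECs, 29.3 CPM (15.6 to 50.1) in Glycam1-rich NECs and 10.9 CPM (9.28 to 12.8) in other NECs. In TECs it was 3.66 CPM (2.13 to 5.86), from 17 UMIs in 7 cells. No Sele UMI was found in the 373 arterial NECs, which allows up to 2.13 CPM (3 UMIs). The intervals of the 4 groups with UMIs do not overlap, but they treat the UMIs of 1 cell as independent. The Glycam1-rich level came from 13 UMIs in 4 cells. The arterial limit lies at the lower end of the interval of the TECs, and the arterial Poisson limit of 2.62 CPM lies within that interval.

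Selp (P-selectin, stored in endothelial granules) followed the same order over the normal classes. It was at 1460 CPM (1397 to 1525) in venous NECs, 209.6 CPM (169.2 to 256.8) in Glycam1-rich NECs and 40.8 CPM (37.5 to 44.2) in other NECs. TECs had 31.0 CPM (26.1 to 36.5), just under other NECs (above them without the 89 cells of NEC cluster 14, at 19.7 CPM), and arterial NECs had 6.39 CPM (2.92 to 12.1), the lowest level. Although venous cells held 8.05% of all NEC UMIs, they held 75.1% of the Selp UMIs and 67.4% of the Sele UMIs. The remaining Selp and Sele UMIs were mostly in other NECs, with 21.2% and 30.1%. Since platelets also carry P-selectin, 6 platelet genes were summed, which gave 82.4 CPM in venous (Itga2b highest, Gp1bb at 0), 49.9 CPM in other, 22.7 CPM in arterial and 202.8 CPM in Glycam1-rich NECs. In TECs the 5 listed platelet genes gave 108.7 CPM, most of it Itgb3, with Ppbp and Gp9 at 0. Their part in the Selp levels was not tested.

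The RefSeq sequences just upstream of both selectin genes are shown because the 2 genes were found in the same cells. Sele (chr1:164048234-164057677) and Selp (chr1:164115264-164150026) lie near each other on the + strand of mouse chromosome 1 in GRCm38. The RefSeq promoter table held 5 of the 7 members. Below, the last 160 bases before each RefSeq start are printed 5′ to 3′ (GRCm38.p6), with capitals for matches to GGNNNTTCC, the loose form of the binding letters of nuclear factor kappa B (NF-kB).

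Sele promoter, chr1:164048074-164048233, + strand: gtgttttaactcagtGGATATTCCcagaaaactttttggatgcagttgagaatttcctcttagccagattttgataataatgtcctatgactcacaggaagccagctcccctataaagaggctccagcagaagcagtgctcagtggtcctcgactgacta

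Selp promoter, chr1:164115104-164115263, + strand: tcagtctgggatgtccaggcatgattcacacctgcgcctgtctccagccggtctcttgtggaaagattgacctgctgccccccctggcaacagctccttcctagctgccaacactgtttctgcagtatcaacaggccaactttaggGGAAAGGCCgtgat

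Each sequence held 1 match to GGNNNTTCC within 250 bases of the start, counted on both strands. The match began 145 bases before the start in Sele and 14 bases before it in Selp. Among all 32851 promoters of the same length in the table, 15.7% held this motif. Sele alone of the 5 members with a sequence also held TATAAA, at 49 bases, as 12.4% of all promoters did; of the 5 members, 4 held GGNNNTTCC. These letter matches are descriptions and do not show binding.

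**Figure D1:**
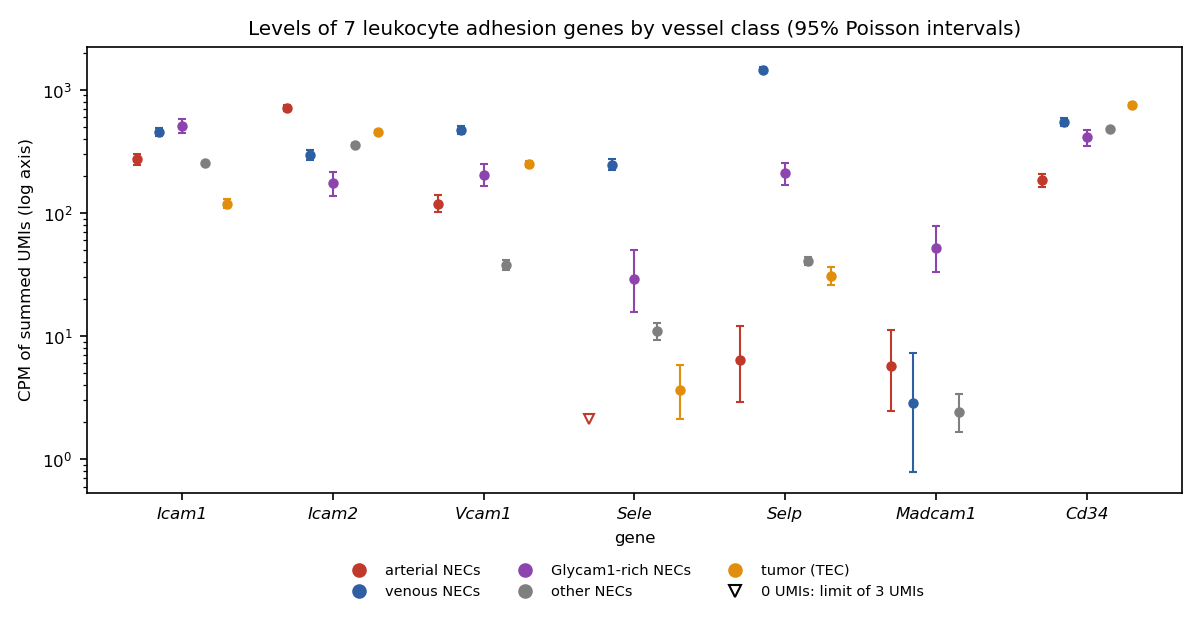
Level of each gene in 4 classes of NECs and in TECs, in CPM of summed UMIs on a log axis; bars are 95% Poisson intervals and the open triangle is the limit (3 UMIs) of a group with 0 UMIs. Sele and Selp were highest in venous NECs (247.3 and 1460 CPM), Icam2 in arterial NECs (714.2 CPM), Madcam1 in Glycam1-rich NECs (51.8 CPM) and Cd34 in TECs (756.1 CPM).

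Of the immunoglobulin-family molecules, Icam1, Icam2 and Vcam1 each had a different order over the vessel types. Icam1, the cytokine-inducible integrin ligand, was at 507.1 CPM (443.0 to 577.8) in Glycam1-rich and 456.5 CPM (421.8 to 493.4) in venous NECs, which overlap when Glycam1 is counted in the CPM. It was at 274 CPM (247.4 to 302.8) in arterial and 252.6 CPM (244.4 to 261.1) in other NECs, which also overlap, and at 118.6 CPM (108.9 to 128.9) in TECs. Venous cells thus stood 1.81-fold above other NECs (interval 1.66 to 1.97) for Icam1, short of the 2-fold limit used for a call.

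Icam2, an integrin ligand that ECs make without stimulation, ran the other way. Its level was 714.2 CPM (670.7 to 759.7) in arterial NECs, 453.7 CPM (434.5 to 473.5) in TECs and 357.3 CPM (347.4 to 367.3) in other NECs. Venous NECs had 296.7 CPM (268.8 to 326.7) and Glycam1-rich NECs 173.5 CPM (137.0 to 216.9). No neighbors in this order overlapped. The Glycam1-rich level is lowered by the 24.2% of UMIs that Glycam1 took there, and its interval without Glycam1 was not set against that of venous cells. Arterial cells exceeded venous cells 2.41-fold (2.15 to 2.71) in Icam2.

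Vcam1, which binds integrins of lymphocytes and monocytes, was high in venous cells and in the tumor. It was at 470.2 CPM (434.9 to 507.5) in venous NECs, 251.2 CPM (237.0 to 266.0) in TECs and 205.1 CPM (165.1 to 251.8) in Glycam1-rich NECs, the last 2 of which overlap. Arterial NECs had 119.3 CPM (101.9 to 138.7) and other NECs 37.8 CPM (34.6 to 41.1). The Glycam1-rich value leaned on few cells, since 39 of its 91 UMIs were in 3 cells of 1 cluster. Unlike the selectins, Vcam1 was thus above other NECs in arterial cells as well, 3.16-fold (2.64 to 3.76).

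The sequence upstream of Icam1 is shown because its level over the clusters was closest to that of Nfkbia, then Nfkbiz (below). Icam1 lies on chromosome 9 (chr9:21015985-21028817, + strand, GRCm38) in GENCODE M21, and the RefSeq start used here lies upstream of the GENCODE start. Capitals again mark GGNNNTTCC on either strand.

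Icam1 promoter, chr9:21015780-21015939, + strand: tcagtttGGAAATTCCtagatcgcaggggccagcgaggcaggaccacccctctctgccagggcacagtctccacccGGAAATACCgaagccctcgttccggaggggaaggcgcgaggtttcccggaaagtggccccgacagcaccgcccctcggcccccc

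The 2 matches began 84 and 153 bases before the start, and the one at 153 reads as a match on both strands. Icam1 also held 3 matches to CCGGAA, the core of ETS factor sites, which 12% of all promoters hold, and 1 of these overlaps the match at 84 bases. The table of promoters did not list Icam2 (chr11:106377656-106388075, - strand) or Vcam1 (chr3:116109949-116129688, - strand).

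Madcam1 and Cd34 are mucin-like carriers of L-selectin ligands. Madcam1, best known from gut and lymphoid venules, was rare, with 69 UMIs in 28 of the 4940 NECs. It was at 51.8 CPM (32.9 to 77.8) in Glycam1-rich NECs, against 5.68 CPM (2.45 to 11.2) in arterial, 2.87 CPM (0.781 to 7.34) in venous and 2.42 CPM (1.67 to 3.37) in other NECs, and these last 3 overlap. The 23 UMIs of the Glycam1-rich cells were in 3 cells, and 1 cell held 13 of them. Madcam1 (chr10:79664559-79668537, + strand, GRCm38) was the only one of the 5 members with a match to the longer NF-kB motif, GGG and TTTCC with 2 free bases between, shown here in capitals.

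Madcam1 promoter, chr10:79664399-79664558, + strand: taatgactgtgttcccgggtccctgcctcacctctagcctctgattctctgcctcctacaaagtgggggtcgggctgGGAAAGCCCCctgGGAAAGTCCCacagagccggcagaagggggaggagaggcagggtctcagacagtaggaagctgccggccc

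Its 2 matches, both on the - strand, began 70 and 83 bases before the start, and 1.41% of all promoters held this motif. The looser GGNNNTTCC overlaps the same bases.

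Cd34, a sialomucin of capillary and other ECs as well as of blood progenitors, was present in all groups. It was at 756.1 CPM (731.3 to 781.5) in TECs, 547.6 CPM (509.4 to 587.8) in venous NECs and 481.3 CPM (469.9 to 492.9) in other NECs. Glycam1-rich NECs had 410.2 CPM (352.7 to 474.3), which overlaps other NECs, and arterial NECs were lowest with 184.6 CPM (162.8 to 208.4). Cd34 (chr1:194938819-194961279, + strand) had no match to any of the 4 motifs searched.

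Shares of cells with a UMI depend on depth and were therefore read after drawing 1900 UMIs from every cell, which left out 22 venous, 63 arterial, 2 Glycam1-rich and 1022 other NECs and 22 TECs. Selp was then found in 53.4% of venous NECs (Clopper-Pearson interval 47.2% to 59.6%), 20.6% of Glycam1-rich (8.70% to 37.9%), 3.32% of other (2.73% to 4.0%) and 0.968% of arterial NECs (0.200% to 2.80%), and in 4.18% of TECs (2.02% to 7.56%). In cells that should lack it, it was found in 0.734% of 681 Epcam cells of the normal table. It was in 0 of 169 cancer-like cells of the tumor table (with Rhox5, Hmga2 or Krt8), which allows up to 1.78% at this depth (3 cells, Clopper-Pearson limit 2.16%). Without thinning, Selp was in 69.0% of venous NECs and 16.1% of TECs.

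Sele was in 17.6% of thinned venous NECs (13.2% to 22.7%) and 0.806% of other NECs (0.527% to 1.18%). In Glycam1-rich NECs Sele was in 5.88% of cells (0.721% to 19.7%), which overlaps both. It was in 0 of 239 thinned TECs, which allows up to 1.26% of cells with a UMI at this depth (3 cells, Clopper-Pearson limit 1.53%). It was in 1.78% of the cancer-like cells of the tumor table, whose level of 4.65 CPM (3.43 to 6.16) overlapped that of TECs. Sele in TECs was therefore not above the level of these cells. Unthinned, 22.9% of venous NECs and 2.68% of TECs had a Sele UMI.

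Vcam1 was found in 37.0% of venous NECs (31.2% to 43.2%), 27.2% of TECs (21.7% to 33.3%), 20.6% of Glycam1-rich, 12.3% of arterial (8.82% to 16.4%) and 2.76% of other NECs (2.22% to 3.39%), against 0.734% and 1.18% in the Epcam cells of the normal and the cancer-like cells of the tumor table. Before thinning, Vcam1 was in 65.9% of TECs and 49.3% of venous NECs, so the order of these 2 groups turned with depth. Cd34 was in 74.1% of TECs (68.0% to 79.5%), 58.8% of venous, 53.9% of other and 21.6% of arterial NECs, and Icam2 in 66.8% of arterial NECs, 57.3% of TECs and 42.7% of venous NECs. Icam1 was in 43.9% of venous (37.8% to 50.1%), 23.4% of other and 22.3% of arterial NECs and in 13.8% of TECs (9.70% to 18.8%), and was also found in 9.84% of the Epcam cells and 4.14% of the cancer-like cells. The Epcam and cancer-like cells were deep before thinning, with medians of 10810 and 52000 UMIs.

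**Figure D2:**
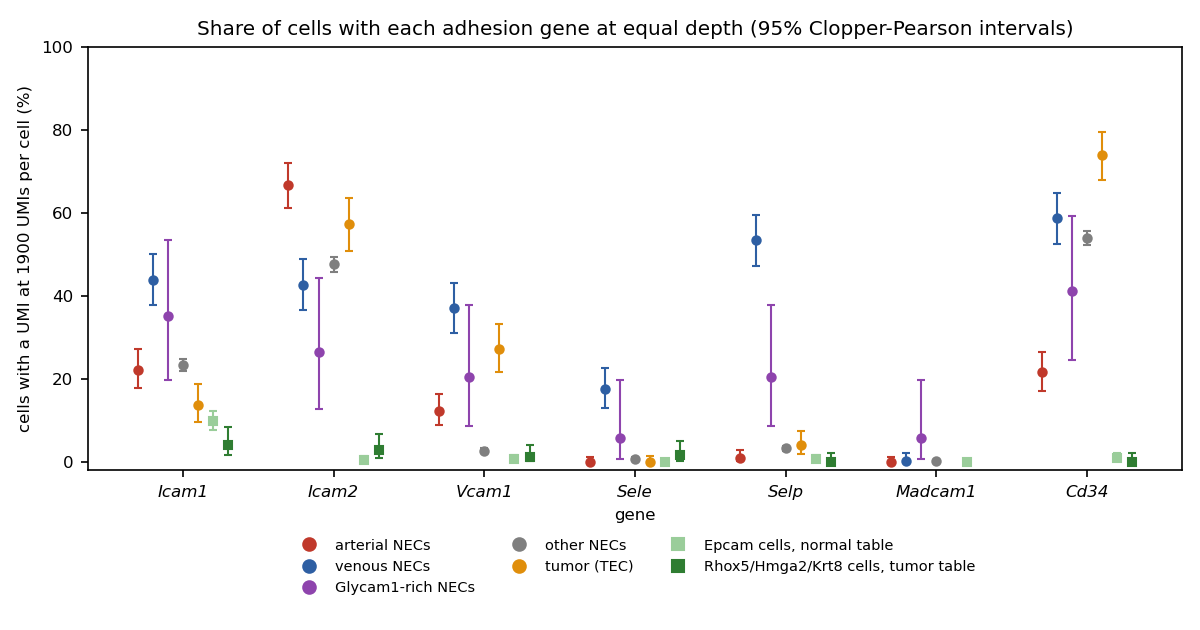
Share of cells with at least 1 UMI of each gene after thinning to 1900 UMIs per cell, in %, with 95% Clopper-Pearson intervals; squares are the Epcam cells of the normal table and the cancer-like cells of the tumor table. Selp was found in 53.4% of venous NECs and 4.18% of TECs, whereas Vcam1 was found in 27.2% of TECs and 2.76% of other NECs.

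The 7 genes were chosen with earlier results of these data known, so their counts against all genes are descriptions. With 1 library per condition and classes cut from 1 library, the comparisons below carry no test across samples. The first set venous against other NECs. Of the 6 members above the minimum (at least 10 CPM in either group and at least 10 UMIs in both groups together), 3 were at least 2-fold higher and 0 lower in venous cells, whereas 5.42% of all 8764 genes tested this way were 2-fold higher and 7.19% lower. The median log2 ratio was 2.25 over these members and -0.07 over all genes. Selp was 35.8-fold higher (32.6 to 39.4), Sele 22.6-fold (18.6 to 27.5) and Vcam1 12.4-fold (11.1 to 14), while Cd34 was at 1.14-fold (1.05 to 1.23) and Icam2 1.2-fold lower (1.09 to 1.33). Madcam1 was under the minimum, at 2.87 CPM in venous and 2.42 CPM in other cells.

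When other NECs with a UMI of any class gene were left out, the log2 ratio of Selp moved from 5.16 to 7.11, of Sele from 4.50 to 6.01 and of Vcam1 from 3.64 to 4.52. Without the 89 cells of NEC cluster 14 (below) they were 4.60, 4.0 and 2.91. Immediate early genes such as Fos and Jun, which respond to tissue dissociation, summed to 4828 CPM in venous and 10600 CPM in other NECs, and the median share of mitochondrial UMIs was 5.76% and 3.45%. The part of these differences in the ratios was not tested.

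The second comparison set arterial against other NECs. Here 1 of the 6 members above the minimum was at least 2-fold higher and 3 were lower, against 5.23% of 8669 genes in each direction. The median log2 ratio of the members was -0.63. Vcam1 was the higher gene, and Icam2, at 1.999-fold (1.87 to 2.14), lay just inside the limit. The log2 ratio of Vcam1 moved from 1.66 to 0.91, within 2-fold, with at most 5% mitochondrial UMIs. It was 2.54 with other NECs that had a UMI of a class gene left out. Cd34 was 2.61-fold lower (2.30 to 2.96), Selp 6.38-fold lower (3.34 to 14) and Sele, with 0 UMIs set to 3, at least 5.14-fold lower. The log2 ratio of Selp moved from -2.67 to -1.62 without NEC cluster 14, and to -0.72, within 2-fold, with other NECs that had a UMI of a class gene left out. Sele, at 10.9 CPM in other NECs, was close to the minimum and fell under it in both of these settings and in 4 more of the 16 alternatives (no cell removed for the 4 marker genes, the mean of per-cell CPM, cells thinned to 1900 UMIs, and classes from clusters). For the 89 cells with both Gja5 and Bmx its bound was within 2-fold, at a log2 ratio of -0.35. Set directly against arterial cells, 4 of 6 members were at least 2-fold higher and 1 lower in venous cells, against 7.01% and 8.71% of all genes: venous cells were 2.97-fold higher in Cd34 (2.57 to 3.43), 3.94-fold in Vcam1 (3.32 to 4.70) and at least 116.1-fold in Sele, and lower in Icam2. Without cluster 14, venous cells were 2.13-fold higher in Vcam1 (1.75 to 2.60) and at least 33.1-fold in Sele. The arterial Selp level rested on 9 UMIs.

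In the third comparison, of Glycam1-rich with other NECs, 5 of 7 members were at least 2-fold higher and 1 was lower. Of all 8663 genes, 6.55% were higher and 37.1% lower. The median log2 ratio was 1.42 over the members and -0.69 over all genes, and Glycam1 alone took 24.2% of the UMIs of the Glycam1-rich cells. Madcam1 was 21.5-fold higher (12.1 to 37.5), Vcam1 5.43-fold (4.30 to 6.79), Selp 5.14-fold (4.08 to 6.41) and Sele 2.68-fold (1.40 to 4.72, from 13 UMIs in 4 cells). With classes from clusters, the log2 ratio moved from 4.42 to 2.23 for Madcam1 and from 2.44 to 1.35 for Vcam1. With classes from thinned cells, it moved from 2.36 to 1.27 for Selp and from 1.42 to 0.77, within 2-fold, for Sele. With other NECs that had a UMI of a class gene left out, it was 4.31 for Selp, 3.32 for Vcam1 and 2.93 for Sele. Icam1, at 2.01-fold (1.75 to 2.30), and Icam2, 2.06-fold lower (1.64 to 2.61), were close to the limit and past it in 14 and 12 of 19 alternatives, and with Glycam1 left out of the CPM the log2 ratio was 1.40 for Icam1 and -0.64 for Icam2, which then was within 2-fold. Cd34 stood at -0.23, and at 0.17 under this scaling.

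Glycam1-rich cells also carried Ccl21a, a chemokine of HEVs and lymphatics, at 9310 CPM, with Reln at 0 and all 7 lymphatic markers together at 9411 CPM. Pf4, a platelet gene, was at 157.8 CPM there, with Ppbp, Gp9 and Gp1bb at 0. Of the leukocyte markers, Coro1a was at 56.3 CPM, with Ptprc at 0 by the filter and Cd3e and Cd79a at 0. The part of these in the member levels was not tested. Without NEC cluster 14 among the other NECs, the log2 ratio of Glycam1-rich over other NECs moved from 2.36 to 3.41 for Selp and from 1.42 to 2.73 for Sele. In venous over Glycam1-rich cells, 3 of 7 members were at least 2-fold higher and 1 (Madcam1) lower, against 32.7% and 5.14% of all genes. Glycam1-rich cells had 6.97-fold less Selp (5.66 to 8.67) and 8.44-fold less Sele (4.87 to 16.0) than venous cells. Vcam1 was 2.29-fold lower there (1.84 to 2.89). The CPM of these differences included Glycam1, which lowers the other genes in Glycam1-rich cells, and they were not computed without it. Without cluster 14 these differences were 2.28-fold (1.83 to 2.88) for Selp, 2.41-fold (1.33 to 4.74) for Sele and 1.24-fold (0.974 to 1.59) for Vcam1, the last within 2-fold.

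**Figure D3:**
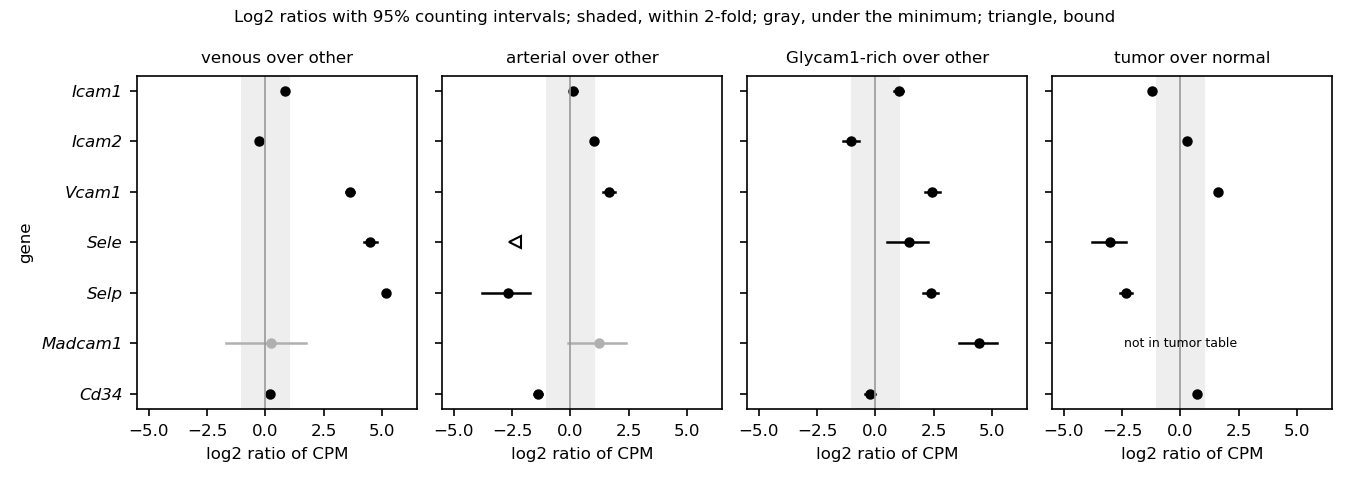
Log2 ratio of CPM for each gene in 4 comparisons, with exact conditional 95% intervals for counting error; the shaded band is within 2-fold, gray points are under the minimum and the open triangle is a bound. Selp reached 5.16 in venous over other NECs and -2.34 in tumor over normal, and Vcam1 3.64 and 1.59 in the same panels.

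The last comparison set TECs against all NECs. Of 6 members, 1 was at least 2-fold higher in TECs, which was Vcam1 (3.01-fold, 2.78 to 3.25), and 3 were lower, which were Sele, Selp and Icam1. Of all 8827 genes, 11% were higher and 19.7% lower, and the median log2 ratio was -0.48 over the members and -0.12 over all genes. Selp was 5.05-fold lower (4.27 to 6.02), Sele 8.08-fold lower (4.99 to 14) and Icam1 2.34-fold lower (2.14 to 2.56). Cd34 was 1.64-fold higher (1.58 to 1.71) and Icam2 1.2-fold higher (1.15 to 1.27).

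The selectin values of the normal library rested in large part on 1 small cluster of 89 venous-like NECs (cluster 14, below). Without it, the log2 ratio of TECs over NECs moved from -2.34 to -0.75 for Selp, which was then within 2-fold, and from -3.01 to -1.27 for Sele, which was then under 10 CPM in both groups, while that of Vcam1 moved from 1.59 to 2.08. Set against other NECs alone, 1 of 6 members was at least 2-fold higher and 2 lower in TECs (11.5% and 20.2% of all genes), and TECs had 6.65-fold more Vcam1 (6.00 to 7.38), 1.32-fold less Selp (1.09 to 1.59), 2.13-fold less Icam1 (1.95 to 2.33) and 2.99-fold less Sele (1.81 to 5.26). Against venous NECs, 0 of 6 were higher and 3 lower (13.9% and 17.9% of all genes), and TECs had 1.87-fold less Vcam1 (1.70 to 2.06), 47.1-fold less Selp (39.8 to 56.2) and 3.85-fold less Icam1 (3.43 to 4.32). Without cluster 14, Selp was instead 1.57-fold higher in TECs than in other NECs (1.28 to 1.93) and 15.4-fold lower than in venous NECs (12.8 to 18.7), and TECs and venous NECs had 251.2 and 254.4 CPM of Vcam1. Sele, at 3.66 CPM in TECs and 4.41 CPM in other NECs, was then under the minimum. These comparisons share the TECs, so that they are not independent of each other. Immediate early genes summed to 2532 CPM in TECs and 9824 CPM in NECs, and the median depth differed as given above. The part of both in these ratios was not tested.

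Within each library, cells were clustered without the 7 genes, which gave 17 clusters of NECs and 4 of TECs. Clusters were named "-like" from marker lists, 8 of the NEC clusters stayed unnamed, and 1 was salivary-like (108 cells). Cluster 15 (45 cells) had pericyte and fibroblast genes and is among the unnamed. Over the NEC clusters, Selp ran from 0 to 2971 CPM with a median of 13.0 CPM, and Cd34 ran only from 166.6 to 749.8 CPM with a median of 430.0 CPM.

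The highest Selp level was in cluster 14, a venous-like cluster of 89 cells led by Rcan1, Il6, Cd14 and Mir155hg, of which 51 were venous by their own genes and 38 were other cells. It had 2971 CPM of Selp (2837 to 3109), 588 CPM of Sele (529.2 to 651.6), 736.2 CPM of Vcam1 (670.3 to 806.9) and 874.8 CPM of Icam1 (802.7 to 951.6). These 4 levels were the highest of any NEC cluster, and the cluster held 68.0% of all Selp UMIs and 71.3% of all Sele UMIs of the NECs. Its immediate early genes summed to 12010 CPM, and their part in these levels was not tested. At the coarser clustering resolution of 0.4, these cells fell into a venous-like cluster of 445 cells, which was highest in Selp (1135 CPM), Sele (205.3 CPM), Vcam1 (485.5 CPM) and Madcam1 (19.9 CPM), while Icam1 was highest in the HEV-like cluster (548 CPM). The other venous-like cluster, cluster 7 (250 cells, led by Cysltr1, Cadm3, Ackr1 and Tagln), had 420.3 CPM of Selp (381.8 to 461.6), 56.7 CPM of Sele (43.2 to 73.2) and 265.4 CPM of Vcam1 (235.0 to 298.7).

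Both venous-like clusters thus carried the selectins, at levels that differed beyond counting error. Immediate early genes summed to 12010 CPM in cluster 14 and 1546 CPM in cluster 7, and their part in this difference was not tested. Among the cells that were venous by their own genes, those of cluster 14 had 4268 CPM of Selp and 752.9 CPM of Sele, against 488.1 and 72.7 CPM in those of cluster 7. Venous cells of cluster 12 (48 cells) had 435.6 CPM of Selp and 43.0 CPM of Sele.

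Cluster 12, an unnamed cluster of 108 cells with Htr2b, Gria3 and Cpe among its leading genes, held 49.3% of the Madcam1 UMIs, at 75.1 CPM (52.0 to 104.9), and 644.8 CPM of Vcam1 (573.0 to 723.2). Its Vcam1 was uneven, with 1031 CPM in its 48 other cells, where 14 cells held 207 UMIs, and 204.4 CPM in its 48 venous cells. In this cluster the 7 lymphatic markers summed to 1692 CPM (Ccl21a 532.2 CPM), against 402.3 CPM in all NECs. Fibroblast genes summed to 205.4 CPM (Dcn 185.5 CPM), against 62.6 CPM in all NECs. The part of these in the Madcam1 and Vcam1 levels was not tested. The HEV-like cluster 13 (90 cells, 32 of them Glycam1-rich, led by Glycam1, Serpina1e, Ccl21a and Fut7) had the highest Cd34 of the NEC clusters, 749.8 CPM (689.6 to 813.9), together with 548 CPM of Icam1, 136.3 CPM of Selp and 17.0 CPM of Madcam1, the last from 1 cell. Within cluster 13, Cd34 was at 1143 CPM in the 54 other cells and 436.0 CPM in the 32 Glycam1-rich cells. Selp ran the other way there, at 10.1 and 221.6 CPM. At the finer resolution of 1.2, Cd34 was highest in a tip-like NEC cluster of 57 cells, at 1043 CPM (930.9 to 1166).

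The arterial-like cluster 4 (447 cells, led by Gja5, Htra1, Egfl8 and Bmx) had the highest Icam2, 830.9 CPM (781.8 to 882.3), and the lowest Cd34, 166.6 CPM (145.1 to 190.5). The other arterial-like cluster, cluster 9 (220 cells, led by S100a4, Nebl, Gprc5a and Aif1l), had 543.3 CPM of Icam2 and 282.1 CPM of Cd34, and differed from cluster 4 in Icam1, with 396.9 against 100.5 CPM. Immediate early genes summed to 18750 CPM in cluster 9 and 2438 CPM in cluster 4. The 2 capillary-like clusters (clusters 0 and 1, 758 and 688 cells) had no Sele UMI, 9.84 and 5.95 CPM of Selp and 71.1 and 43.8 CPM of Icam1. Icam1 was high in unnamed clusters as well, with 555.4 CPM in cluster 5, led by Hspa1a, Car8, Atf3 and Egr1, and 510.4 CPM in cluster 2, led by Ifi207, Ier3, 8430408G22Rik and Ifi204. Immediate early genes summed to 25820 and 17810 CPM in clusters 5 and 2, against 1215 and 2192 CPM in the capillary-like clusters 0 and 1, and their part in the Icam1 levels was not tested.

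Among the TECs, Vcam1 was highest in the interferon-like cluster 0 (104 cells, led by Cxcl10, Ms4a6b, Rsad2 and Ifit2), at 389.1 CPM (361.1 to 418.7). It was at 178.1 CPM (153.5 to 205.5) in the tip-like cluster 3 (47 cells, led by F2rl2, Pgf, Egln3 and Adm) and 153.4 CPM (134.6 to 174.0) in the mitotic-like cluster 2 (53 cells, led by Fbxo5, Hist1h2ap, Hist1h1b and Esco2), and these 2 overlap. Icam1 was at 152 CPM (134.7 to 171.0) in the interferon-like, 156.5 CPM (137.6 to 177.4) in the mitotic-like and 20.9 CPM (13.1 to 31.7) in the tip-like cluster. Selp showed the same split, with 42.5, 33.7 and 11.4 CPM, and Cd34 was highest in the interferon-like cluster, at 850.7 CPM (809.0 to 893.9). That place of Cd34 did not hold at resolution 1.2, where it was lowest in an interferon-like cluster of 22 cells (652.9 CPM) and highest in an unnamed cluster of 78 cells (921.2 CPM), whereas Vcam1 was again highest in the interferon-like cluster (610.5 CPM). Tip-like TECs were thus lower in Icam1 than interferon-like and mitotic-like ones, also at resolution 1.2 (19.96 against 109.6 and 165 CPM), whereas Selp at that resolution was at 12.7 CPM in the tip-like and 12.5 CPM in the interferon-like cluster, the latter from 5 UMIs. Icam2 in the tip-like cluster of resolution 0.8 was at 508.5 CPM (466.2 to 553.5), which overlaps that of the interferon-like cluster (464.8 CPM, 434.2 to 497.1). The shallow cluster 1 (57 cells, median 2198 UMIs) stayed unnamed and had 132 CPM of Vcam1, with 21.1 CPM of Icam1 (4 UMIs) and 5.28 CPM of Selp (1 UMI), whose intervals overlap those of the tip-like cluster.

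**Figure D4:**
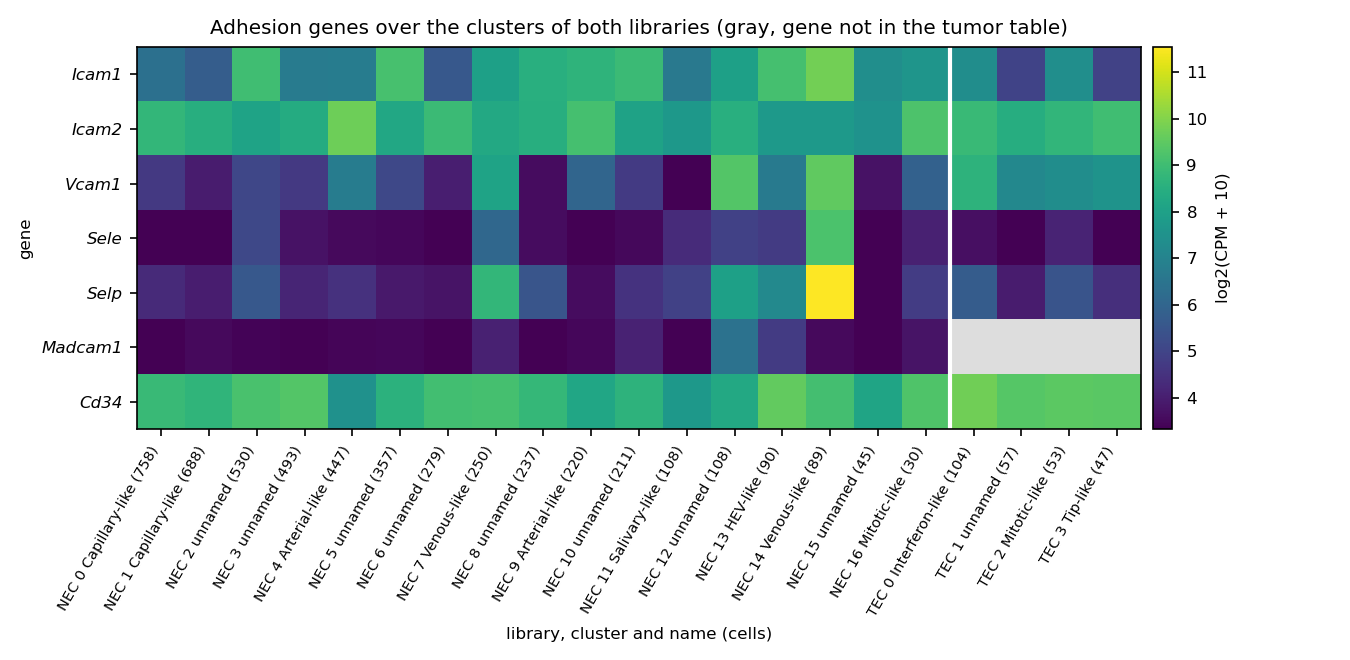
Level of each gene in the 17 NEC and 4 TEC clusters, as log2(CPM + 10); the number of cells is given in parentheses and the white line separates the libraries. Selp and Sele were high in the venous-like clusters 14 and 7, and Icam2 and Cd34 were present in every cluster.

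In the same venous cells, the selectins were found together. Of the 262 venous NECs thinned to 1900 UMIs, 46 had a Sele UMI, and 40 of these (87.0%) also had Selp, against 46.3% of those without Sele. Icam1 was found in 71.7% of the Sele cells and 38.0% of the others, and Vcam1 in 50.0% and 34.3%. Icam2 (45.7% and 42.1%) and Cd34 (52.2% and 60.2%) differed less with Sele. Before thinning, 38 of the 65 venous cells with a Sele UMI were in cluster 14, where 49 of 51 venous cells had Selp. The part of this cluster in these shares was not tested. All of Sele, Selp and Vcam1 were found in 20 venous cells and in 7 of 3225 other NECs. None of the 239 TECs or 310 arterial NECs had a Sele UMI after thinning, so none of them could hold all of these genes. Of the 34 Glycam1-rich NECs, 2 had Sele and none held all of them. At least 4 of the genes were found in 24.4% of venous NECs, 8.82% of Glycam1-rich, 1.21% of other and 0.968% of arterial NECs and 4.18% of TECs.

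Over the 21 clusters, the genes most like each member were named by Pearson correlation of log2(CPM + 10), given as a description, since clusters share their library, depth and base composition. Sele and Selp were each close to the other (r = 0.932) and to Ackr1 (0.867 for Sele, 0.947 for Selp), a gene used to call venous cells, with Mir155hg (0.867) and Tll1 (0.863) next for Sele and Selp. Icam1 was closest to Nfkbia (0.848), the inhibitor that NF-kB induces against itself, then Nfkbiz (0.836) and Csrnp1 (0.834). Vcam1 was closest to Traf1 (0.862), an adapter of tumor necrosis factor receptors, Arrb1 (0.858) and Lgmn (0.856). Icam2 had Actn4 (0.815), Cnih4 and Cmas (both 0.767), and Cd34 had Cmtm3 (0.839), Meox1 (0.829) and Gimap4 (0.789). Over the 17 NEC clusters, Madcam1 was closest to Ltc4s (0.947), Cldn11 (0.946) and Astn1 (0.943), with 1 cluster far above the rest.

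Genes that act beside the 7 in the same cascade were counted in 5 lists by the same 2-fold limit. These lists were also chosen with earlier results of these data known. Of all genes, 5.42% were higher and 7.19% lower in venous and 5.23% each way in arterial over other NECs. In Glycam1-rich over other NECs 6.55% were higher and 37.1% lower, and in TECs over NECs 11% and 19.7%. Among the makers and carriers of sulfated ligands, 6 of 13 were higher and 4 lower in Glycam1-rich over other NECs. The sulfotransferase Chst4 (139.7 against 0.355 CPM), the fucosyltransferase Fut7 (405.7 against 2.49 CPM) and the branching enzyme Gcnt1 (151 against 3.84 CPM) were higher, and the mucin Podxl (42.8 against 558.8 CPM) was lower. In venous cells 1 of 10 was higher (Gcnt1) and 3 were lower (Fut4, Cd300lg and Podxl), and in arterial cells 1 of 10 was higher, Gcnt1 (33.4 against 3.84 CPM), and 4 were lower, among them Chst2 (13.5 against 87.6 CPM). In TECs 0 of 11 were higher and 4 lower, among them Fut7 (0.431 against 13.1 CPM, from 2 UMIs) and Cd300lg (208.8 against 655.6 CPM). The Fut7 level of all NECs included Glycam1-rich cells, at 405.7 CPM, while other NECs were at 2.49 CPM. Set against other NECs alone, 1 of 9 genes of this list was higher in TECs and 2 were lower, against 11.5% and 20.2% of all genes.

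Junction and transmigration genes were split. In venous cells 1 of 17 was higher, the tetraspanin Cd9 (1365 against 414 CPM), and 2 were lower, the tight junction gene Cldn5 (103.9 against 776.1 CPM) and Jam3. In arterial cells 4 of 17 were higher, Cldn5 (2353 CPM) among them, and 1 was lower (Jam3). In Glycam1-rich cells 1 of 18 was higher (Alcam) and 9 were lower, including Jam2 (45.1 against 460.1 CPM) and Tek, where 37.1% of all genes were lower. In TECs 2 of 17 were higher, Mcam (574.5 against 91.8 CPM) and Nectin2, and 4 were lower, among them Jam3 (31.0 against 179.7 CPM) and Rdx.

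Of the cytokine receptors, 3 of 10 were higher and 0 lower in venous cells, which were Il6st (1177 against 252.1 CPM), Tnfrsf11a and the interleukin receptor Il1r1 (111.8 against 49.4 CPM). In TECs 1 of 10 was higher (Ifngr2, 112.6 against 33.5 CPM) and 3 were lower, Il6st (55.1 against 335.3 CPM), Il1r1 and Tnfrsf11a. Among NF-kB feedback genes and regulators, 0 of 11 were higher and 1 lower (Tnfaip2) in venous cells, and 0 of 10 passed the limit in arterial cells, where of the cytokine receptors 0 of 10 were higher and 1 was lower (Il1r1). In Glycam1-rich cells 1 of the 10 receptors was higher (Ifngr2) and 3 were lower, where 37.1% of all genes were lower. Of the NF-kB genes, 5 of 11 were higher in Glycam1-rich cells, with Nfkbie (63.1 against 9.23 CPM) and Tnfaip3 (180.3 against 43.8 CPM) farthest, and 2 were lower. In TECs 1 of 11 was higher (Nfkbie) and 5 were lower, among them Irf1 (129.8 against 608.6 CPM), Tnfaip3 (15.1 against 46.5 CPM) and Nfkbia (529.9 against 1366 CPM).

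Chemokines and their presenters, which activate integrins of rolling leukocytes, were found in both directions. In venous cells 4 of 9 were higher, including Ccl21a (342.6 against 54.0 CPM), Cxcl16 and Cxcl10, and 1 was lower, Cxcl12 (354 against 2143 CPM). In arterial cells 2 of 10 were higher, among them the atypical receptor Ackr4 (14.2 against 1.06 CPM), and 4 were lower, including Ccl2 and Cxcl9. In Glycam1-rich cells 4 of 9 were higher, including Ccl21a and Cxcl1 (1300 against 111.7 CPM), and 3 were lower, including Cxcl12 (40.6 against 2143 CPM). In TECs 4 of 10 were higher, including Ccl5 (92.1 against 1.39 CPM), Ccl2 (248.6 against 13.4 CPM) and Cxcl9 (2123 against 164.7 CPM), and 4 were lower, including Ccl21a (0 UMIs, against 315.3 CPM). The Ccl21a level of all NECs included Glycam1-rich cells, at 9310 CPM, while other NECs were at 54.0 CPM.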

How the data were processed

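Both libraries were sorted CD45-/CD31+ cells. Per the labels, the authors made the deposited UMI count tables with Cell Ranger on mm10 and handled them in Seurat (the Cell Ranger version is not given in the sources used here). The gene, mitochondrial and 4-gene filters follow the study's methods. The 7 genes and all lists were chosen with earlier results of these data known, and the immediate early list after seeing the data. Ratios had exact conditional binomial intervals, and a gene at 0 was set to 3 UMIs. Clusters came from Seurat 5.3.0 (4000 variable genes without the 7, 20 components, 20 neighbors, resolution 0.8), and a "-like" name needed at least 3 marker genes with 1 or more in the 10 leading genes; it was not given where a different list matched as many markers or held more of those 10. The resolution of 0.4 or 1.2 was an alternative. List genes were named among the 4 per list and comparison with the largest log2 ratio in size, or where they made up a small count. Scrublet in scanpy 1.11.5 called 3 NECs (0.0607%, too few to rely on) and 6 TECs (2.30%), and no cell was removed. TMM factors were from edgeR 4.0.16. On simulated counts for venous over other NECs (8266 genes, 200 changed), intervals held the true value for 94.0% of changed and 95.8% of other genes, and 0.211% of unchanged genes were called past 2-fold. Simulated Glycam1-rich over other NECs (8230 genes) gave 3.37% of unchanged genes called. The simulations drew Poisson counts for each group as a whole, which is the model that the intervals assume. They left out the spread between cells, so they do not check the intervals for genes whose UMIs lie in few cells. Gene positions are GENCODE M21 and promoters RefSeq, both GRCm38. Alternatives varied filters, depth, scaling and class rules.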

Additional observations from a re-analysis of the deposited data

How the results depend on the processing

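No log2 ratio of a member above the minimum and past 2-fold changed direction under any alternative run, while Madcam1 in arterial over other NECs (8 arterial UMIs, under the minimum) moved from 1.23 to -1.99 with classes from clusters and to -0.03 with arterial cells called from both genes, Madcam1 in venous over other NECs, also under the minimum, from 0.25 to -1.34 with classes from thinned cells, and Icam1 in arterial over other NECs, within 2-fold, from 0.12 to -0.12 with classes from clusters, and Cd34 in Glycam1-rich over other NECs, within 2-fold, kept its sign under 14 of 19. The counts of venous over other NECs stayed within 1.5 times under all 16 alternatives. In arterial over other NECs, the count of higher members was 2 in place of 1, with Icam2 added, when no cell was removed for the 4 marker genes, with the mean of per-cell CPM, with cells thinned to 1900 UMIs, without the top 5% of Scrublet scores, with venous cells called without Vwf, with arterial cells called from both genes, with classes from thinned cells or from clusters, and with other NECs without any class gene; it was 0 with at most 5% mitochondrial UMIs, and in the setting without any class gene the lower members were 1 (Cd34) in place of 3, since Sele was under the minimum and Selp within 2-fold. In Glycam1-rich over other NECs, 0 in place of 1 were lower with no cell removed for the 4 genes, 5% mitochondrial UMIs, thinned cells, TMM or median-ratio scaling, classes from clusters and CPM without Glycam1, and 3 in place of 5 were higher with classes from thinned cells. Icam1 there was past 2-fold in 14 of 19 alternatives and lay between 0.85 and 1.54. In tumor over normal, 2 in place of 1 were higher when no cell was removed for the 4 genes, where Icam1, at -0.998, was just within 2-fold and 2 in place of 3 were lower, and 1 (Icam1) in place of 3 was lower without NEC cluster 14, where Sele was under the minimum and Selp within 2-fold. The last setting and the one without any class gene were chosen after seeing the data, and other causes were not tested. The highest cluster level of a gene moved in 8 of 13 cases at clustering resolution 0.4 and in 3 of 13 at 1.2. Over all alternatives, the log2 ratio of tumor over normal lay between -2.57 and -0.75 for Selp, -3.18 and -1.27 for Sele, 1.53 and 2.21 for Vcam1 and -1.41 and -0.998 for Icam1, and that of venous over other between 4.06 and 7.11 for Selp, 3.99 and 6.01 for Sele and 2.91 and 4.52 for Vcam1. TMM and median-ratio scaling put the log2 ratio of an unchanged gene at -0.12 and -0.16 in tumor over normal and at -0.51 and -0.54 in Glycam1-rich over other. The share of all genes past 2-fold, against which the members' counts are read, was 12.6% in venous over other, 10.5% in arterial over other, 43.6% in Glycam1-rich over other and 30.7% in tumor over normal, and was 15.0%, 11.8%, 46.0% and 34.2% with a minimum of 100 CPM and 17.5%, 15.7%, 30.6% and 33.8% with a minimum of 1 UMI. With 1 library per condition, no replicate could be left out. No paired analysis was possible because each condition has 1 library. Depth limits Sele in TECs (17 UMIs) and in arterial NECs (0 UMIs), and Madcam1 everywhere.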
